A study of Zea mays with 20 samples.

Results

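The vegetative shoot apex and the young male inflorescence of maize were compared gene by gene in plants that carry at least 1 working copy of the homeobox gene kn1. The comparison took 2 libraries labelled shoot apical meristem (SAM) and 3 labelled tassel primordia, 5 of the 20 messenger RNA libraries of a study of KNOTTED1, and covered every gene in the count table. The SAM libraries came from greenhouse plants 19 days after germination with 6 to 7 visible leaves. Each pooled 15 apices cut off below the fourth youngest leaf primordium, so that they hold the meristem and its youngest leaves. The tassel libraries came from field plants, each a pool of 10 tassels 4 to 5.5 mm long. All plants are of the inbred B73. Titles and source labels call these plants wild type, the genotype label reads kn1-e1/+, and the series' design text allows heterozygotes or wild type, so they are called siblings here. Tissue, age and growing place (greenhouse or field) changed together in all 5 libraries and cannot be told apart. In pooled tissue, fewer cells of a type and less RNA per cell cannot be told apart either. Beside these stand 2 SAM and 3 tassel libraries of kn1-e1 homozygotes. Their SAM plants were also 19 days old with 6 to 7 visible leaves, and their tassels were 2 to 3 mm long. Further libraries are of field-grown sibling ears 7 to 8 mm long (2) and of 10-day greenhouse leaves without the Kn1-N allele (2).

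A shoot meristem makes leaves until the plant flowers, and then it becomes an inflorescence meristem. In a maize tassel that meristem produces branches and paired spikelets, each with floral meristems of its own, while leaf growth below them is repressed. KNOX homeobox proteins such as KN1 keep cells of both meristems undifferentiated, YABBY proteins act in developing leaves and other lateral organs, and MADS-box proteins specify the identity of spikelet meristems and floral organs.

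The 2 SAM libraries held 16068246 to 18924945 counts and 24810 to 25300 detected genes, and the 3 tassel libraries 18540771 to 19006899 counts and 25755 to 25817 detected genes. Between the SAM libraries the median absolute log2 ratio was 0.16, against 0.083 to 0.089 between tassel libraries. Nothing in the labels says that replicates came from separate plantings, so p-values measure the spread between these pools. Levels are given as CPM, in which each library's counts are brought to one total with trimmed-mean (TMM) factors, without dividing by gene length. Fold changes are log2 values of SAM over tassel ± SE, so negative ones mean lower in SAM. The 7 shoot meristem markers summed to 154 to 165 CPM in SAM and 703 to 711 CPM in tassel. The 12 leaf primordium markers summed to 167 to 175 CPM in SAM and 85.4 to 95 CPM in tassel, and the 7 spikelet and floral meristem markers to 94.6 to 97.3 CPM in SAM and 389 to 408 CPM in tassel. The spikelet markers bd1 and ra1 had 0 counts in SAM. The 8 floral organ and anther markers summed to 185 to 199 CPM in SAM, where 4 of them were at 0, and to 176 to 181 CPM in tassel, where 1 was at 0. Most of both sums came from ocl4 alone, at 162 and 177 CPM in SAM and 153, 154 and 155 CPM in tassel, and most of the rest from zmm16. The part of these cell mixtures in the results below was not tested.

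Of 39656 genes, 21656 had enough counts to test and 11088 had 0 counts in all 5 libraries. At an adjusted p under 0.05 (edgeR quasi-likelihood F test, Benjamini-Hochberg over all genes tested), 11496 genes were called, 53.1% of those tested, with 5720 (26.4%) higher and 5776 (26.7%) lower in SAM. Requiring a difference of at least 2-fold left 1356 genes higher in SAM (6.26%) and 2347 lower (10.8%). The median log2 fold change over all genes tested was 0.007. At the extremes, 109 tested genes had 0 counts in both SAM libraries and 18 had 0 in all 3 tassel libraries.

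The KNOX genes were lower in SAM. Of 10 measured members, 8 fell, where 26.7% of all genes tested did, and none rose. For 7 of them the fall was at least 2-fold (10.8% of all genes tested), and the list's median was -2.01. The transcript of kn1 itself (GRMZM2G017087) was at 32.3 and 36.1 CPM in SAM, against 184, 207 and 203 CPM in tassel. The groups did not overlap, and kn1 fell by 2.52 ± 0.09 on the log2 scale (edgeR, adjusted p = 1.3e-09).

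The widest KNOX gap was that of knox3 (GRMZM2G000743), at 0.305 and 1.03 CPM in SAM and 48.7, 50.4 and 46.2 CPM in tassel. The SAM libraries differed more than the tassels did, and the estimate of -6.22 ± 0.21 became -5.55 without SAM replicate 1 and -7.27 without SAM replicate 2. In knox8 the levels were 1.02 and 0.726 CPM in SAM, against 18.9, 20.3 and 18.0 CPM in tassel, a change of -4.41. The genes lg3 and lg4, named for dominant mutants in which the boundary of leaf blade and sheath moves, were lower by less, at -1.47 ± 0.09 for lg3 and -1.51 ± 0.09 for lg4. Another gene listed as lg4b differed by -2.85.

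The remaining KNOX genes differed little. The gene knox6 was at 18.1 and 18.6 CPM in SAM and 24.2, 23.1 and 24.2 CPM in tassel, and fell by 0.37 (edgeR, adjusted p = 0.0032). Neither knox7 (-0.20, adjusted p = 0.051, edgeR) nor gnarley1 (-0.13, adjusted p = 0.15, edgeR) was called, although knox7 passed without SAM replicate 1 (adjusted p = 0.012). Leaf levels also divided the KNOX genes. In young leaf, knox6 averaged 27.2 CPM and knox7 33.9 CPM, whereas the other 8 averaged 0.135 CPM or less.

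**Figure D1:**
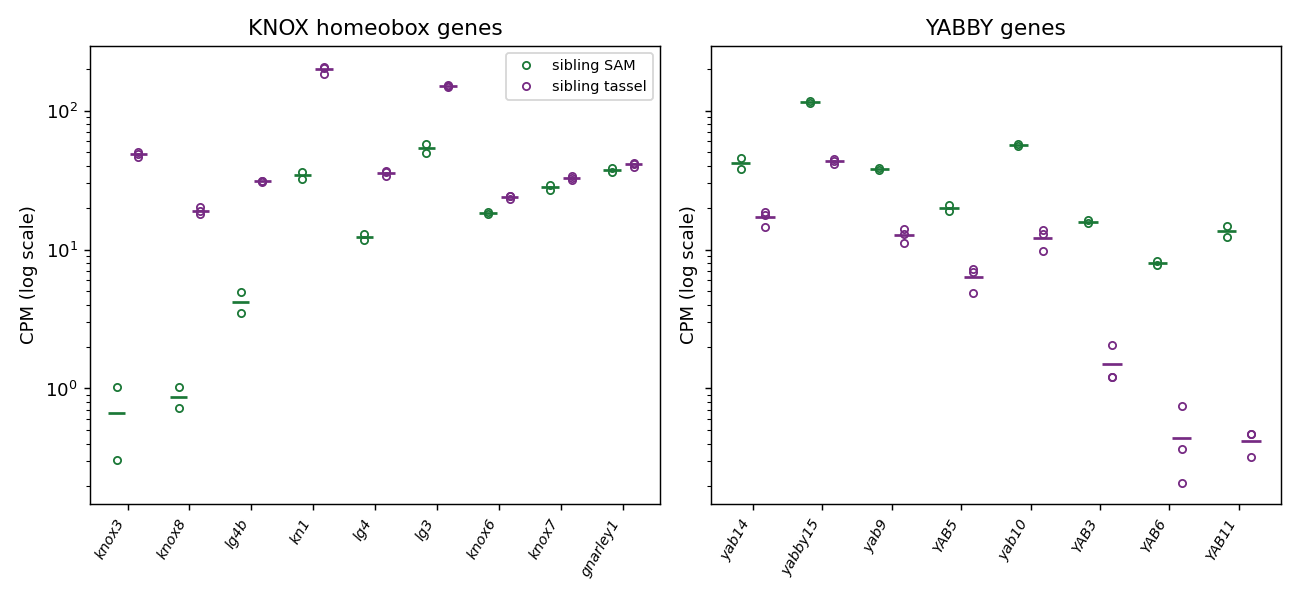
CPM (log scale) of 9 KNOX genes (left) and the 8 YABBY genes (right), with 1 circle per sibling library (SAM green, tassel purple) and a bar at the group mean. Green circles lie below purple ones for kn1, knox3, knox8 and the lg genes, and above them for every YABBY gene.

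The YABBY genes ran the other way. All 8 were measured and all 8 rose in SAM by at least 2-fold, as 6.26% of all genes tested did, with a median of 1.95. The smallest difference was that of yab14, at 1.30 ± 0.11. For yabby15 the levels were 114 and 117 CPM in SAM and 45.1, 43.6 and 41.5 CPM in tassel (1.42 ± 0.07). The largest was that of YAB11 (GRMZM2G141955), at 12.4 and 14.8 CPM in SAM and 0.319, 0.473 and 0.468 CPM in tassel, a rise of 5.00 ± 0.21 (edgeR, adjusted p = 3.6e-09). YAB3 rose by 3.41 and YAB6 by 4.18. SAM and tassel libraries did not overlap in any of the 8, but neither did they in 11433 of all 11496 called genes. Of the 8 YABBY genes, 2 averaged at least 10 counts per library in only 1 tissue. The field-grown ear was not uniformly like the tassel here: YAB11 averaged 0.538 CPM in ear, while yab14 averaged 74.0 CPM and yabby15 101 CPM there. The leaf primordium marker sum given above is higher in SAM, but yab14 and yabby15 make up most of it. Of the 7 of its 12 markers that could be tested, these 2 rose and the other 5 fell. The 5 included lg2, at 6.20 and 4.90 CPM in SAM and 8.61, 8.41 and 9.83 CPM in tassel, and the light-harvesting gene Lhcb5-1, at 8.03 and 7.62 CPM in SAM and 15.2, 14.7 and 13.5 CPM in tassel. The leaf-expressed flowering regulator id1, not tested, had 0 counts in SAM.

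Of 12 genes of leaf polarity, 4 rose, 3 fell and 5 were not called, with a median of 0.02. These shares lie near those of all genes tested, of which 26.4% rose and 26.7% fell. The gene of the HD-ZIP III protein ROLLED LEAF1, rld1, was at 213 and 222 CPM in SAM and 208, 193 and 195 CPM in tassel, and the RNA-silencing gene lbl1, which acts in the same polarity pathway, was at 451 and 530 CPM in SAM and 510, 520 and 515 CPM in tassel. Neither was called, at 0.14 for rld1 and -0.06 for lbl1. The KANADI gene kan3, of a family known for abaxial identity, had 1.68 and 1.75 CPM in SAM and 0 counts in all tassel libraries, which makes it at least 32.8-fold higher in SAM. Another KANADI gene, kan1, rose by 1.75 ± 0.17. The LOB-domain gene IG1 (indeterminate gametophyte1) was at 29.2 and 27.6 CPM in SAM and 5.16, 6.10 and 3.59 CPM in tassel, a rise of 2.53 ± 0.15, whereas hdz10 fell by 3.46 ± 0.10.

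Of 6 LOB-domain genes tested, 4 rose and 2 fell, with a median of 1.14, where 26.4% of all genes tested rose and 26.7% fell. The one that fell most was LOB15, with 2.03 and 1.63 CPM in SAM and 52.6, 69.8 and 111 CPM in tassel. Its tassel libraries spread more widely than those of most genes named here, but none came near the SAM level, and the change was -5.38 ± 0.37. Of 8 genes with a TCP name, 5 rose and 2 fell (26.4% and 26.7% of all genes tested). However, 3 of the 8, TCP7 among them, averaged at least 10 counts per library in only 1 tissue, which set their direction in advance. TCP7 had 1.78 and 2.36 CPM in SAM and 0.213, 0.210 and 0.156 CPM in tassel (3.38 ± 0.36). Of 17 growth-regulating factor and GIF genes, 7 rose and 4 fell (26.4% and 26.7% of all genes tested). The rises of GRF7, GRF11 and GRF13 and the fall of the GRF9 gene GRMZM2G124566 by 1.26 reached 2-fold. GRF13 was at 70.0 and 69.3 CPM in SAM, against 31.5, 32.5 and 29.5 CPM in tassel.

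The genes that shape the inflorescence were lower in SAM in most cases. All 31 measured members were called: 27 fell and 4 rose, 20 of the falls and 3 of the rises by at least 2-fold, with a median of -1.72. Of all genes tested, 53.1% were called, 26.7% fell and 10.8% fell by at least 2-fold. However, 8 of the 31 averaged at least 10 counts per library in only 1 tissue, as ra1 and bd1 did in tassel. They could be tested through that tissue alone, which set their direction in advance. Branching genes of the RAMOSA pathway were among them. The zinc-finger gene ra1 (GRMZM2G003927) had 0 counts in both SAM libraries and 6.80, 7.04 and 6.45 CPM in tassel, at least 81.0-fold lower in SAM. The trehalose-phosphate phosphatase gene ra3 (GRMZM2G014729) was at 2.85 and 2.54 CPM in SAM, against 68.1, 60.9 and 61.9 CPM in tassel (-4.54 ± 0.12). The gene bd1 (branched silkless1), for an ERF factor of spikelet meristems, had 0 counts in SAM and 6.54, 5.36 and 5.77 CPM in tassel, at least 70.5-fold lower. BAD1, a TCP gene of the tassel branch angle, had 1 count over both SAM libraries and 308 in tassel, a count ratio of 194 for tassel over SAM (exact 95% interval 34.5 to 7680, counting error only). Few reads came from SAM for lg1 (liguleless1), an SBP-box gene of the ligule that also acts in the tassel, with 1 count there and 189 in tassel, and for the HD-ZIP gene gt1 (grassy tillers1), with 2 counts there and 271 in tassel. The ratios of tassel over SAM were 119 (21.1 to 4730) for lg1 and 85.3 (23.4 to 708) for gt1.

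Some members of the list are known for starting axillary meristems. BA1, the bHLH gene of barren stalk1, was at 0.660 and 0.545 CPM in SAM and 11.3, 12.2 and 12.4 CPM in tassel (-4.28 ± 0.20). The AT-hook gene baf1, barren stalk fastigiate, was at 0.610 and 1.45 CPM in SAM and 11.7, 11.9 and 11 CPM in tassel. Its change was -3.51 ± 0.23, and -4.21 without SAM replicate 2. The auxin biosynthesis gene spi1 (sparse inflorescence1) fell by 2.69 ± 0.19 and the kinase gene bif2 (barren inflorescence2) by 2.55 ± 0.15. The Aux/IAA genes did not move together: BIF4 was at 3.35 and 2.78 CPM in SAM and 22.9, 22.1 and 21.9 CPM in tassel (-2.84 ± 0.13), while BIF1 was at 37.4 and 27.4 CPM in SAM and 24.3, 23.2 and 21.9 CPM in tassel (0.50 ± 0.12, edgeR, adjusted p = 0.0045).

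Genes known for meristem size and stem cells differed by varying amounts. The CLAVATA1-like receptor kinase gene TD1 (thick tassel dwarf1) was at 21.4 and 24.4 CPM in SAM and 63.6, 52.7 and 59.1 CPM in tassel, a change of -1.34 ± 0.10. The bZIP gene FEA4 fell by 0.93 ± 0.08 and the G-protein subunit gene ct2 by 0.34 ± 0.07. For the receptor-like gene fea2 the levels were 28.0 and 31.5 CPM in SAM and 35.1, 38.6 and 36.4 CPM in tassel. Its fall of 0.30 ± 0.08 had an adjusted p of 0.0097 (edgeR) and lost its call without tassel replicate 2 (adjusted p = 0.058). The calls of the corepressor gene rel2 (-0.28) and of the response regulator gene abph1 (-0.48) were lost without any single tassel library, with adjusted p values (edgeR) of 0.10 to 0.13 for rel2 and 0.068 to 0.12 for abph1, and abph1 also lost its call without either SAM library (0.053 and 0.16). The gene fea3, for a receptor-like protein, was at 8.28 and 7.02 CPM in SAM and 23.6, 21.2 and 21.7 CPM in tassel, a fall of 1.52 ± 0.11. The stem-cell gene wus2 was scarce in both tissues, at 0.152 and 0.0605 CPM in SAM and 1.28, 1.05 and 1.30 CPM in tassel. It fell by 3.37 ± 0.49 (edgeR, adjusted p = 0.00014), and by 4.18 without SAM replicate 1. Its relative wus1 had 3 counts in SAM and 59 in tassel, a ratio of tassel over SAM of 12.4 (exact 95% interval 4.04 to 61.8).

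The lipoxygenase gene ts1 (tasselseed1) was at 1.83 and 2.00 CPM in SAM and 11.3, 9.46 and 9.88 CPM in tassel, a fall of 2.41 ± 0.17. The dehydrogenase gene ts2 (tasselseed2) fell by 1.61 ± 0.20, and the glume gene tga1 by 1.72 ± 0.14. The LEAFY ortholog zfl1 was at 24.1 and 21.4 CPM in SAM and 54.2, 60.2 and 56.2 CPM in tassel. The transcript was therefore present in the vegetative apex, and it was lower there by 1.31 ± 0.09.

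The 4 members that rose in SAM were BIF1, sid1, ub2 and ub3. The SBP-box genes ub2 and ub3 (unbranched), known for limiting the number of lateral primordia, were at 131 and 104 CPM (ub2) and 182 and 150 CPM (ub3) in SAM. In tassel, ub2 was at 41.8, 38.8 and 38.3 CPM and ub3 at 53.8, 53.7 and 54.1 CPM. No tassel library reached a SAM library, and the rises were 1.58 ± 0.10 for ub2 and 1.64 ± 0.09 for ub3 (edgeR, adjusted p = 1.2e-07 and 3.4e-08). The AP2-like genes of spikelet meristem fate went in opposite directions: sid1 was at 19.5 and 16.9 CPM in SAM and 8.67, 6.88 and 7.59 CPM in tassel (1.25 ± 0.12), and ids1 was at 48.2 and 56.2 CPM in SAM and 95.9, 90.8 and 90.0 CPM in tassel (-0.81 ± 0.08). Over the wider SBP-box family of 22 tested genes, 8 rose and 10 fell, with a median of -0.03 (26.4% of all genes tested rose and 26.7% fell). The extremes were sbp1 (GRMZM2G111136), with 3 counts over the SAM libraries and 379 over the tassels, and sbp3 (GRMZM2G101499), which rose by 1.84.

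**Figure D2:**
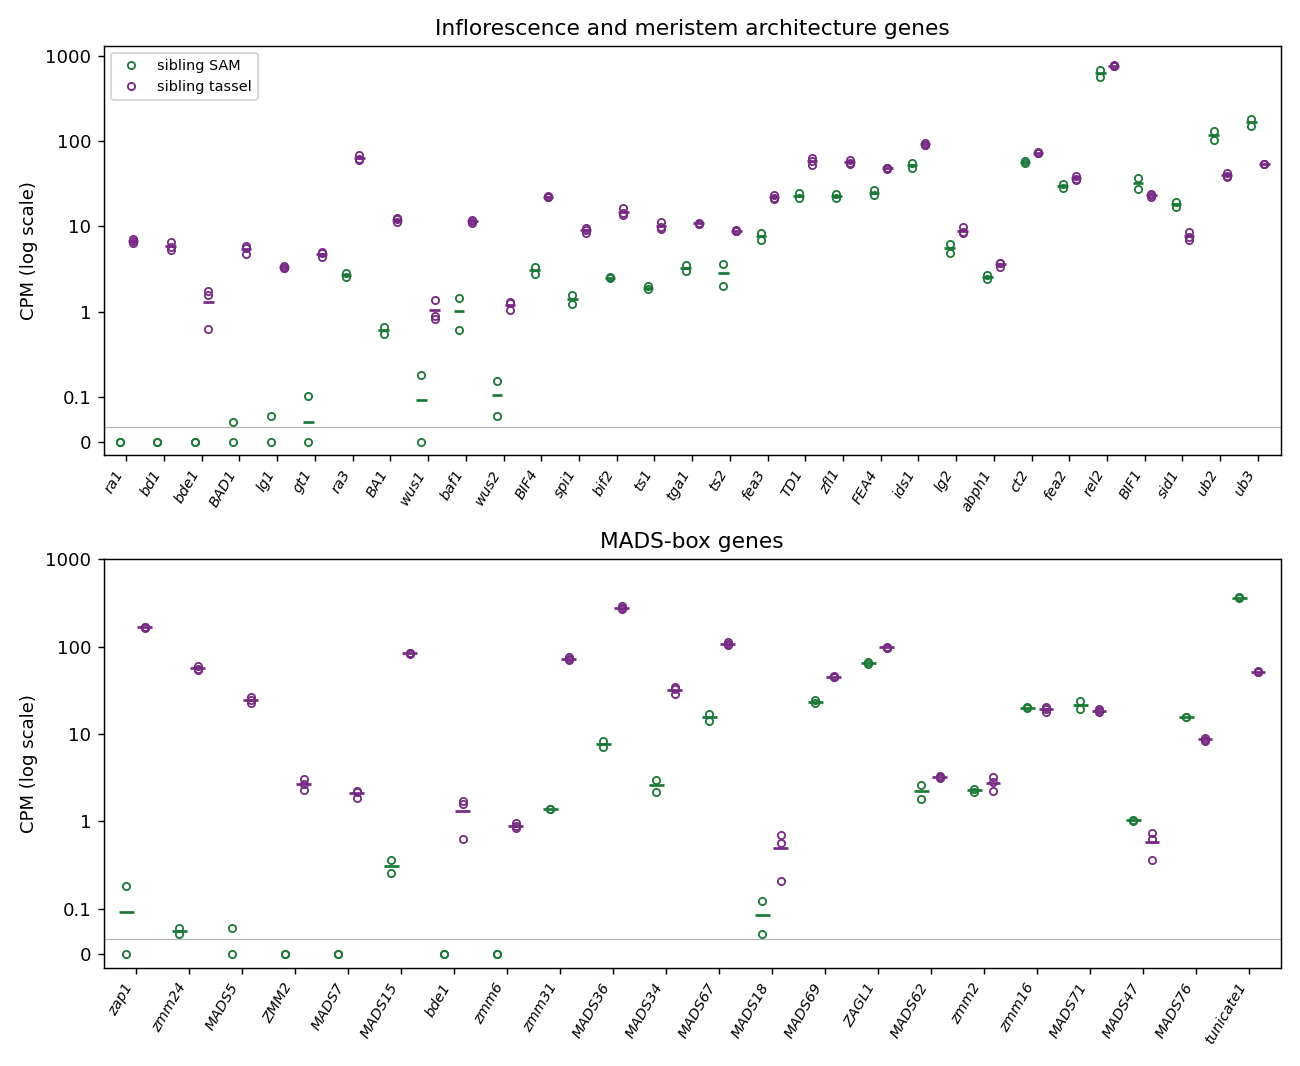
CPM (log scale, with 0 drawn below the grey line) of the inflorescence genes (top) and MADS-box genes (bottom) in each sibling library, ordered from lowest to highest log2 fold change of SAM over tassel. Bars are group means, drawn only where the mean is clear of the 0 position. The genes ra1, bd1 and bde1 sit at 0 in SAM, and only the rightmost genes, such as ub2, ub3 and tunicate1, have green SAM circles well above purple tassel circles.

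MADS-box genes gave the lowest list median, -3.22. Of 22 tested, 15 fell and 2 rose (26.7% and 26.4% of all genes tested), with 13 falls and 1 rise of at least 2-fold (10.8% and 6.26% of all genes tested). However, 8 of the 22 reached the count minimum in only 1 tissue. They could be tested through that tissue alone, which set their direction in advance. Both the median and the count of falls include such genes. The APETALA1-like gene zap1 (GRMZM2G148693) was at 0 and 0.182 CPM in SAM, 3 counts in all, and at 168, 167 and 161 CPM in tassel. The count ratio of tassel over SAM was 1980 (exact 95% interval 677 to 9600). MADS15 was at 0.254 and 0.363 CPM in SAM and 84.1, 84.8 and 82.9 CPM in tassel, a change of -8.07 ± 0.15 (edgeR, adjusted p = 1.3e-11). MADS36 was present in both tissues at 7.01 and 8.23 CPM in SAM and 269, 291 and 278 CPM in tassel (-5.19 ± 0.11). Each of these genes was also high in the ear, with means of 137 CPM for zap1, 88.1 CPM for MADS15 and 216 CPM for MADS36.

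Some MADS-box genes had almost no counts in SAM. The SEPALLATA-like gene MADS5 (GRMZM2G102161) had 1 count in SAM and 1401 in tassel, and zmm24 had 2 in SAM and 3204 in tassel. The AGL6-like gene bde1 (bearded-ear) had 0 counts in SAM and 1.59, 1.73 and 0.624 CPM in tassel, at least 15.7-fold lower in SAM. In the ear, bde1 averaged 47.0 CPM. A further 12 MADS-box genes did not reach the count minimum. Their highest level was 0.356 CPM in SAM and 0.631 CPM in tassel, although 9 of them averaged at least 1 CPM in ear, the B-class gene Silky1 among them.

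Several MADS-box genes did not follow. The gene tunicate1 (GRMZM2G370777), whose misexpression in the inflorescence causes pod corn, was at 362 and 365 CPM in SAM and 51.3, 51.4 and 52.3 CPM in tassel. The groups lay far apart, with a rise of 2.83 ± 0.07 (edgeR, adjusted p = 9.4e-11). In leaf it averaged 136 CPM and in ear 1.29 CPM. MADS76 rose by 0.85 ± 0.10. The genes zmm16 (0.07), MADS71 (0.25), MADS47 (0.82), MADS62 (-0.51) and zmm2 (GRMZM2G492156, -0.28) were not called, and the call of MADS18 (-2.46, adjusted p = 0.018, edgeR) was lost without SAM replicate 1 (adjusted p = 0.10). MADS69, an activator of flowering, was at 24.4 and 22.5 CPM in SAM and 45.5, 44.9 and 44.8 CPM in tassel.

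Among 12 genes of floral transition tested, 4 rose and 7 fell, where 26.4% of all genes tested rose and 26.7% fell. However, 4 of the 12 averaged at least 10 counts per library in only 1 tissue, which set their direction in advance. The PEBP-family gene ZCN14 had 0 counts in SAM and 31, 28.0 and 28.7 CPM in tassel, at least 350-fold lower in SAM. ZCN4 had 0 counts in SAM and 1.38, 1.73 and 1.87 CPM in tassel. The opposite was found for DLF1 (delayed flowering1, GRMZM2G067921), a bZIP gene that promotes flowering at the shoot apex. It was at 130 and 128 CPM in SAM, against 15.7, 14.8 and 16.3 CPM in tassel, a rise of 3.06 ± 0.07 (edgeR, adjusted p = 7e-11). ZCN16 rose by 2.33 ± 0.34, with 1.42 and 2.00 CPM in SAM and 0.319, 0.368 and 0.312 CPM in tassel. The florigen gene ZCN8 was near 1 CPM or below in every library, and its call (0.84, adjusted p = 0.044, edgeR) was lost under 8 alternatives, among them the removal of either SAM library.

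**Figure D3:**
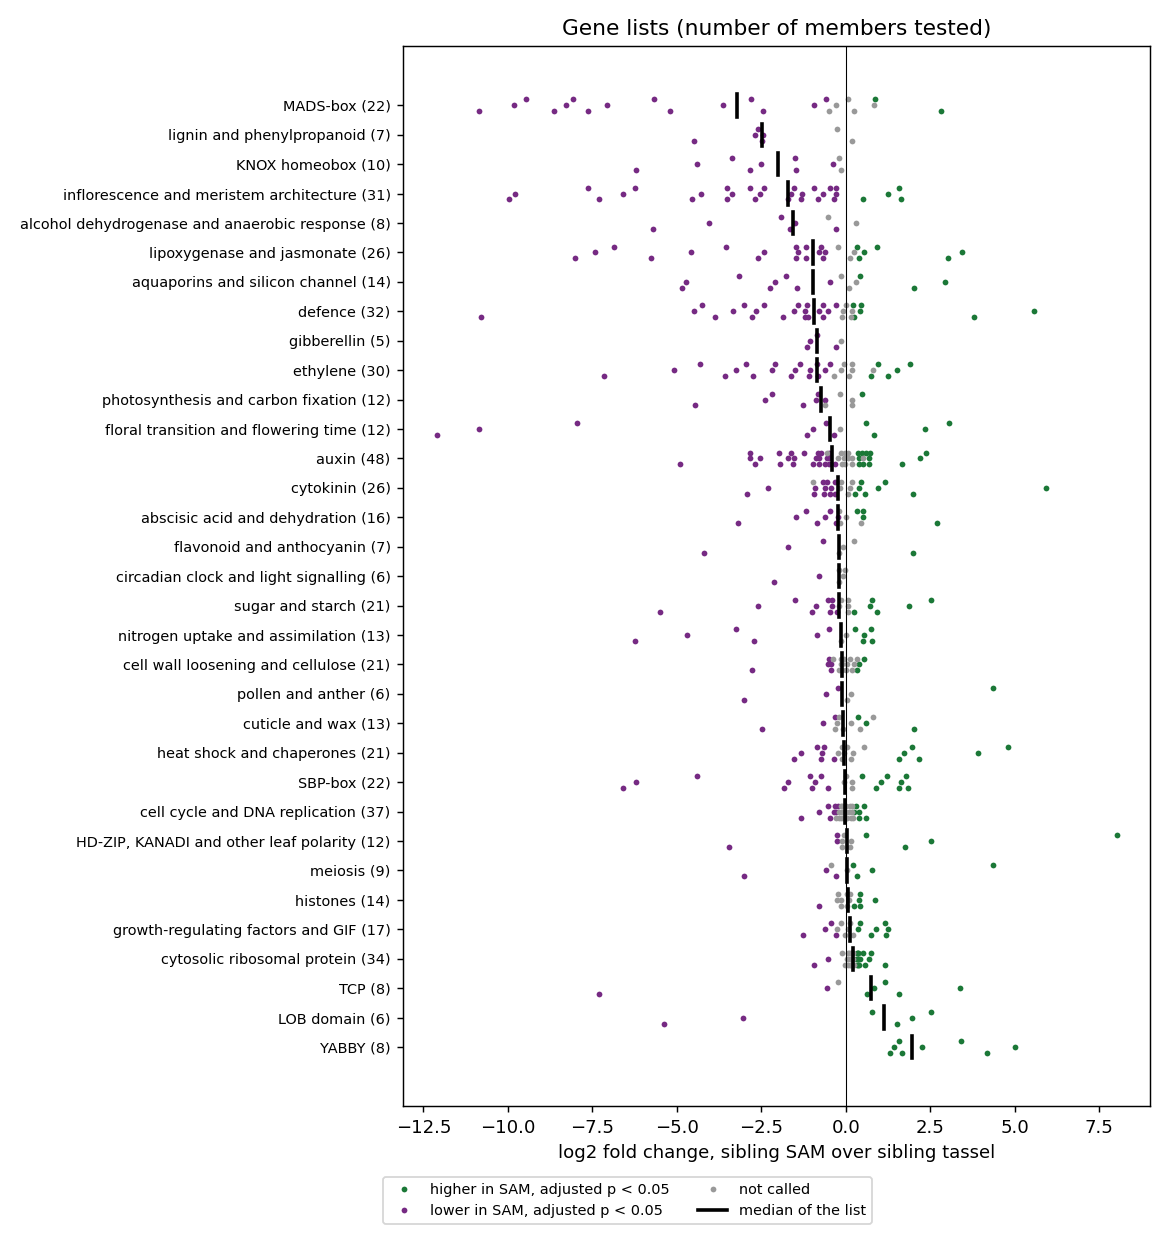
Log2 fold change of SAM over tassel for the tested members of the gene lists, 1 point per gene, coloured by direction where called. The vascular (3 tested) and brassinosteroid (1 tested) lists are not drawn. Black bars are list medians, which run from -3.22 for MADS-box genes at the top to 1.95 for YABBY genes at the bottom.

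Gibberellin promotes growth, and DELLA proteins restrain the response to it. Of 5 gibberellin genes tested, 4 fell in SAM and none rose (26.7% of all genes tested fell). The synthesis gene an1 was at 21.7 and 24.4 CPM in SAM and 52.9, 47.6 and 52.7 CPM in tassel (-1.14 ± 0.09). The DELLA genes d9 and D8 fell by 0.84 and 0.30. The fall of KS by 1.05 (edgeR, adjusted p = 0.032) was lost with DESeq2 (adjusted p = 0.058) and without SAM replicate 1 or tassel replicate 1 or 2.

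Of 48 auxin genes, 12 rose and 24 fell (median -0.41), and 12 of the falls and 3 of the rises reached 2-fold. The shares that rose, and that rose by at least 2-fold, are near the 26.4% and 6.26% of all genes tested that did. Of all genes tested, 26.7% fell and 10.8% fell by at least 2-fold. The largest fall was that of gar2, at 2.44 and 1.27 CPM in SAM and 61.2, 57.9 and 54.3 CPM in tassel (-4.91 ± 0.17, and -5.50 without SAM replicate 1). The auxin response factor gene ARF18 was at 180 and 201 CPM in SAM and 573, 542 and 539 CPM in tassel (-1.52 ± 0.09), and ARF30 fell by 1.62. ARF5 (GRMZM5G808366) rose by 2.37, at 6.00 and 6.72 CPM in SAM and 1.49, 1.16 and 1.04 CPM in tassel. Of the auxin efflux carriers, PIN1a fell by 0.51 and PIN8 rose by 1.67.

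Of 26 cytokinin genes, 8 rose and 12 fell, with a median of -0.24, where 26.4% of all genes tested rose and 26.7% fell. Cytokinin oxidases, which degrade the hormone, differed in both directions. CKX12 (GRMZM2G008792) was at 42.6 and 31.8 CPM in SAM and 0.691, 0.526 and 0.624 CPM in tassel, a rise of 5.92 ± 0.20 (edgeR, adjusted p = 6.6e-10), and CKX6 rose by 1.99. CKX4 fell by 2.31 ± 0.25. The response regulator gene RR11 was at 1.02 and 0.484 CPM in SAM and 6.17, 5.89 and 5.88 CPM in tassel (-2.93 ± 0.25, and -3.61 without SAM replicate 1).

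The ethylene list had 5 rises and 18 falls among 30 genes (median -0.84), against 26.4% rises and 26.7% falls over all genes tested. However, 5 of the 30 averaged at least 10 counts per library in only 1 tissue, which set their direction in advance. The receptor gene etr2 was at 37.7 and 44.1 CPM in SAM and 114, 136 and 130 CPM in tassel (-1.62 ± 0.10). EREB26, named for an ethylene-responsive binding domain, was at 2.13 and 1.75 CPM in SAM and 25.3, 24.7 and 21.7 CPM in tassel (-3.59 ± 0.15). EREB161 was higher in SAM, at 132 and 136 CPM, against 41.8, 35.4 and 30.5 CPM in tassel (1.91 ± 0.10).

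Genes of lipoxygenases were among the most abundant transcripts that fell in SAM. Lipoxygenases oxidise fatty acids, and some of them feed the synthesis of jasmonate. The gene lox10 (GRMZM2G015419) was at 2.24 and 2.90 CPM in SAM, against 718, 652 and 607 CPM in tassel. Every tassel library was far above both SAM libraries, and the change was -8.00 ± 0.16 (edgeR, adjusted p = 2.3e-11). The gene lox1 was at 21.6 and 14.9 CPM in SAM and 1070, 936 and 1040 CPM in tassel (-5.78 ± 0.17). Smaller falls were found for lox6 (-3.55) and lox5 (-1.43). In contrast, lox11 was at 116 and 131 CPM in SAM and 16.3, 16.3 and 13.6 CPM in tassel, a rise of 3.01 ± 0.09. Of the 26 tested genes in the lipoxygenase and jasmonate list, 17 fell and 6 rose, with a median of -0.98 (26.7% of all genes tested fell and 26.4% rose). However, 5 of the 26 averaged at least 10 counts per library in only 1 tissue, which set their direction in advance. The allene oxide synthase genes aos1 (-1.48) and aos2 (-0.61), which act in jasmonate synthesis, were among the falls.

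Benzoxazinoid genes make the major defence compounds of young maize. BX5 was at 169 and 167 CPM in SAM and 1070, 1100 and 1020 CPM in tassel (-2.65 ± 0.09). BX3 was at 61.1 and 52.8 CPM in SAM and 389, 409 and 376 CPM in tassel (-2.77 ± 0.10). The first genes of the route were scarce in SAM, with bx1 at 0.356 and 0.545 CPM in SAM and 6.91, 9.41 and 9.57 CPM in tassel. BX4 (-1.85) and bx2 (-3.33) fell as well, whereas the glucosyltransferase genes bx8 (-0.10) and bx9 (0.16) were not called. The ribosome-inactivating protein gene rip2 had 0 counts in SAM and 10.3, 13.5 and 12.1 CPM in tassel, at least 143-fold lower. Over the whole defence list, 21 of 32 genes fell and 6 rose (26.7% and 26.4% of all genes tested), 16 of the falls and 2 of the rises by at least 2-fold (10.8% and 6.26%). The rises of that size were the mlo genes mlo3 (5.58 ± 0.19) and mlo5 (3.78 ± 0.11). In mlo3 the SAM libraries were at 26.6 and 27.4 CPM and the tassels at 0.744, 0.683 and 0.260 CPM. The defence list includes genes taken by TPS symbols, which the reference table does not tie to a product here.

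PAL1, for the first enzyme of phenylpropanoid synthesis, was at 35.4 and 34.7 CPM in SAM and 222, 197 and 176 CPM in tassel (-2.49 ± 0.11). The cinnamyl alcohol dehydrogenase gene cad1 of lignin synthesis fell by 2.61 ± 0.11, and 5 of 7 genes in this list fell with none rising. Of 8 genes of alcohol fermentation and low-oxygen response, 6 fell and none rose. Among all genes tested, 26.7% fell. Alcohol dehydrogenase adh2 was at 2.13 and 2.42 CPM in SAM and 126, 116 and 115 CPM in tassel (-5.70 ± 0.12). Its relative adh1 was at 155 and 192 CPM in SAM and 491, 704 and 787 CPM in tassel, and the haemoglobin gene GLB1 fell by 4.04 ± 0.22. The pyruvate decarboxylase gene pdc3 fell by 1.49 ± 0.08.

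Of 14 aquaporin genes, 8 fell and 3 rose, where 26.7% of all genes tested fell and 26.4% rose. Aquaporins are channels for water and small solutes. NIP3-1 was at 2.79 and 2.00 CPM in SAM and 72.0, 71.8 and 67.8 CPM in tassel (-4.85 ± 0.13), and PIP1-1 was at 18.0 and 15.8 CPM in SAM and 73.6, 80.1 and 67.4 CPM in tassel (-2.11 ± 0.10). NIP1-1 rose by 2.02 ± 0.10.

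Levels in the other field tissue and in leaf differed between these genes. In ear, which shared the field with the tassel, lox10 averaged 1.58 CPM, lox1 67.8 CPM and pdc3 50.1 CPM. The ear level of lox10 was therefore near that of SAM, and that of pdc3 lay below it. In greenhouse leaf, lox10 averaged 1520 CPM, BX5 1100 CPM and PAL1 547 CPM, levels at or above those of tassel. The gene adh2 was high in both field tissues, with 57.8 CPM in ear, and averaged 5.04 CPM in leaf. The ear and leaf libraries entered no test.

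**Figure D4:**
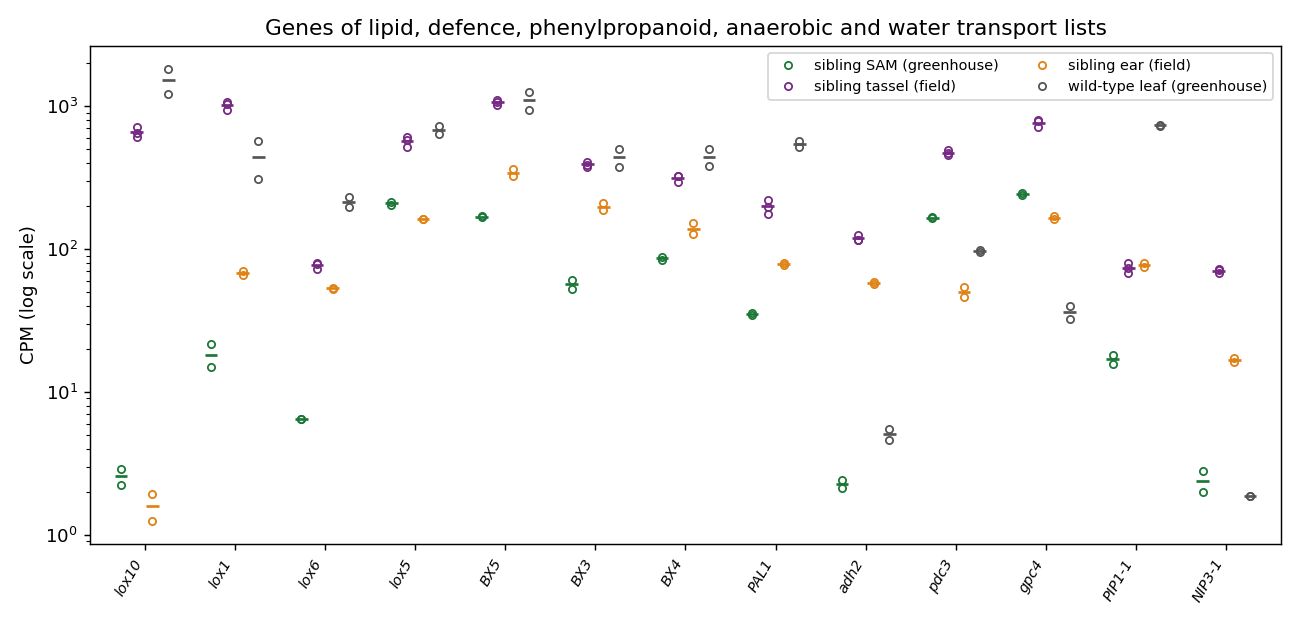
CPM (log scale) of 13 genes of the lipoxygenase, defence, phenylpropanoid, anaerobic and aquaporin lists in sibling SAM, tassel and ear and in wild-type leaf, 1 circle per library with a bar at the mean. The genes were picked after their values were seen. SAM is below tassel for each gene. The ear (also from the field) lies near or below SAM for lox10, lox5, pdc3 and gpc4. It lies above SAM for lox1, lox6, BX5, BX3, PAL1, adh2, PIP1-1 and NIP3-1. The greenhouse leaf lies above tassel for lox10, lox6, PAL1 and PIP1-1.

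The largest single differences fell outside the lists in part. MPAO (GRMZM2G034152), a polyamine oxidase gene, had 0 counts in SAM and 109, 102 and 93.2 CPM in tassel, at least 1210-fold lower in SAM. The gene kin1 (GRMZM2G158394) had 0 counts in SAM and 29.2, 30.3 and 22.7 CPM in tassel, at least 328-fold lower. On the other side, m20 (GRMZM2G059102), for which the reference table gives only the name, was at 158 and 141 CPM in SAM and 0.372, 0.315 and 0.260 CPM in tassel, a rise of 8.87 ± 0.14 (edgeR, adjusted p = 6.7e-12). A gene named m26 rose by 4.61 ± 0.08, with 203 and 216 CPM in SAM, against 8.88, 8.93 and 8.06 CPM in tassel. PER1, maf1 and kan3 had 0 counts in all tassel libraries, with lower bounds of 70.9-fold for PER1 and 49.2-fold for maf1. The oleosin gene ole1 had 340 counts in SAM and 2 in tassel.

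By the size of the difference in CPM, other genes led. Among those higher in SAM, RAB15 was at 1580 and 1190 CPM in SAM and 458, 455 and 428 CPM in tassel (1.65 ± 0.12), and the lipid transfer protein gene LTP3 was at 782 and 698 CPM in SAM and 186, 189 and 178 CPM in tassel (2.02 ± 0.09). The glycine-rich protein gene grp1 had 4940 and 3920 CPM in SAM and 2640, 2610 and 2610 CPM in tassel. Among those lower in SAM were lox1, lox10 and BX5 and the receptor kinase gene ERECTA, at 456 and 540 CPM in SAM and 1380, 1370 and 1410 CPM in tassel (-1.47 ± 0.10). The aldolase gene ald1 fell by 1.83 ± 0.10.

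The same tissue contrast was available in kn1-e1 homozygotes, which carry 2 copies of a loss-of-function allele, from 2 SAM and 3 tassel libraries that the sibling comparison did not use. It again set apices of 19-day plants against tassels, so tissue and age changed together here too. Agreement between the genotypes cannot tell them apart. Where the kn1-e1 plants grew is not described here, so the agreement cannot set growing place apart either. There 12328 of 21397 genes were called (57.6%, edgeR, Benjamini-Hochberg adjusted p under 0.05), 6050 higher (28.3%) and 6278 lower (29.3%) in SAM. Of the genes tested in both genotypes, 9281 were called in the same direction in both, which is 75.9% of the kn1-e1 calls and 82.7% of the sibling calls. Of 3439 sibling calls of at least 2-fold, 3160 (91.9%) were called in the same direction in kn1-e1 and 6 in the opposite one. Across the 21217 genes, which are not independent replicates, Pearson's r of the log2 fold changes was 0.937 and Spearman's rho 0.883.

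All 8 YABBY genes rose in kn1-e1 SAM (median 2.35), and of 10 KNOX genes 9 fell (median -1.64). Of 30 inflorescence genes tested, 25 fell and 4 rose, and of 18 MADS-box genes, 12 fell and 2 rose, beside the 28.3% of all genes that rose and the 29.3% that fell in this genotype. These counts again include genes that could be tested through tassel alone, which set their direction in advance. Among them were ra1 and bd1, with 0 counts in kn1-e1 SAM. In kn1-e1 homozygotes kn1 itself was lower in both tissues, at 10.8 CPM in SAM and 45.2 CPM in tassel on average, and its contrast was -2.08, against -2.52 in siblings. The test of that difference gave 0.46 (edgeR, adjusted p = 0.40). In all, 233 of 21998 genes (1.06%) had a contrast that differed between the genotypes. That count was 72 with the replicate number as a block, in a fit that also left out tassel replicate 3 of each genotype. It was 76 without kn1-e1 SAM replicate 2 and 94 without replicate 1, 1598 without sibling SAM replicate 2, and 150 and 133 without sibling tassel replicates 1 and 2.

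**Figure D5:**
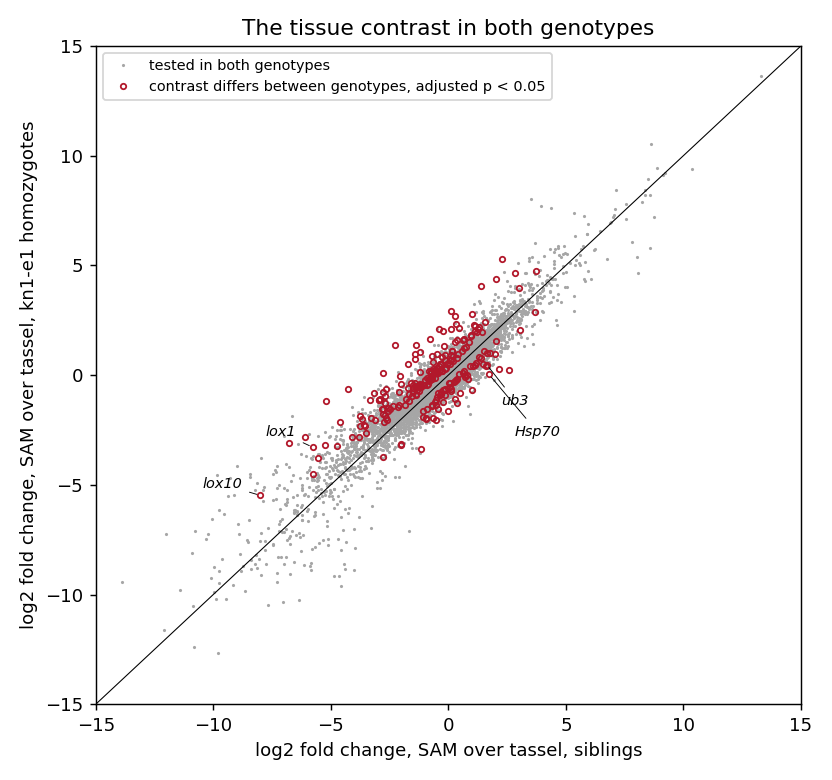
Log2 fold change of SAM over tassel in siblings (horizontal) and in kn1-e1 homozygotes (vertical), 1 point per gene tested in both, with the line of equal values. Red circles are genes whose contrast differs between genotypes at an adjusted p under 0.05. Most points follow the line, with r of 0.937, and lox10 and lox1 lie above it.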

How the data were processed

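The deposited table holds raw read counts per gene, made by the authors. CASAVA 1.8, TopHat 1.2.0, HTSeq and DESeq 1.4.1 are named per the submitters' processing notes, without their roles, and the genome build and annotation are not given in the sources used here. Per the labels' protocols, libraries were made with an unstranded TruSeq RNA kit, so reads of overlapping antisense genes cannot be told apart, and near-identical copies such as histone genes may share reads.

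Counts of the 5 sibling libraries were fitted with edgeR 4.0.16 in R 4.3.3 (quasi-likelihood F test, TMM factors, low genes removed by filterByExpr at 10 counts per library and 15 in all, tissue as the only term, 3 residual degrees of freedom). The biological coefficient of variation was 0.0692. Genes with a p under 0.05 after Benjamini-Hochberg adjustment were called. The filter lets a gene in through 1 tissue alone, and the direction of such a gene is then set in advance. Among siblings this held for 8 inflorescence, 8 MADS-box, 5 ethylene, 5 lipoxygenase and jasmonate, 4 floral transition and 2 YABBY genes. It also held for 4 nitrogen, 3 TCP, 3 SBP-box and 3 defence genes, and for some in other lists. The kn1-e1 contrast was fitted likewise, and the interaction in 1 fit of 10 libraries. CPM used TMM factors over all 20 libraries. Standard errors come from the F statistic and are approximate. A group with 0 counts was given a bound from 3 counts over the group, and one with 1 to 3 counts a count ratio with an exact 95% interval. Intervals and bounds cover counting error only. For simulated counts, 200 well-counted genes were changed and all others left equal, with a spread set by expression level alone. The sibling fit recovered 74.6% of 1.5-fold changes and all of the 2-fold and 4-fold ones, with 10 false calls. Recovery of low-count genes, or with as many changed genes as here, was not simulated.

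Names came from the Zm-B73-REFERENCE-NAM-5.0 table (18775 IDs matched, 47.3%). Genes were named by a rule: kn1, all tested KNOX, inflorescence, MADS-box and floral transition genes, up to 5 called genes from other lists by p, the 10 largest changes in each direction by fold and by CPM, and the 10 smallest interaction p. Not every gene that the rule takes is described in the text, and MADS-box and floral transition genes such as zmm31, MADS34, ZCN18 and COL5 are left out. Genes named beyond the rule (such as rld1, lbl1, PIN1a, bx8, gpc4, aos2 and D8) were chosen after their values were seen. Members, gene lists and tests were chosen with earlier results of these data known. Alternatives were DESeq2, other scalings, no filter, a wider fit, a replicate block and leaving out each library. 1 KNOX gene is counted in its list but not reported here by itself.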

Additional observations from a re-analysis of the deposited data

Results flagged for a closer look

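The contrast of SAM over tassel differed between kn1-e1 homozygotes and siblings in 233 genes (edgeR interaction test, Benjamini-Hochberg adjusted p under 0.05), and 25 named genes are among them. Each value below is the log2 contrast in kn1-e1 minus that in siblings. Tassels were 2 to 3 mm long in kn1-e1 and 4 to 5.5 mm in siblings, so size differs with genotype and cannot be told apart from it. Among lipoxygenase genes the differences were 2.54 for lox10, 2.51 for lox1, 1.25 for lox6, 1.07 for lox5 and 0.98 for lox11. The lox10 level averaged 327 CPM in kn1-e1 tassel and 7.33 CPM in kn1-e1 SAM. Among benzoxazinoid genes they were 1.25 for BX3, 0.95 for bx9 and 0.69 for BX5, and among other metabolic and transport genes 1.36 for tps26, 0.95 for PAL1, 0.76 for pdc3, 0.74 for PIP1-1, -1.03 for A1 and -0.45 for LTP3. The SBP-box genes ub3 (-1.15), ub2 (-1.14) and sbp6 (-0.81) had a lower contrast in kn1-e1. The heat-shock genes hsp1 (-1.85) and Hsp70 (-1.67) did too. Of the developmental genes, the differences were -0.92 for MADS67, -0.61 for ZAGL1, 0.55 for ids1, 0.54 for yabby15 and 0.86 for TCP30. GRMZM2G050412, a gene without a name, differed by 0.73. Adjusted p values ran from 6.5e-06 for lox10 to 0.037 for LTP3.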

How the results depend on the processing

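The number of genes called between SAM and tassel of siblings lay between 9466 and 12975 under every alternative run, against 11496, and that in kn1-e1 homozygotes between 9869 and 13043. Across 2208 values of 201 named genes, none changed direction, 33 lost their call and 10 gained one. The interaction count moved most: 545 genes with no filter on low counts and 72 with the replicate number as a block, against 233. Without single libraries it ranged from 76 (kn1-e1 SAM replicate 2) to 1598 (sibling SAM replicate 2), and the cause was not tested. Deviations of same-numbered libraries showed little correlation across genes (r of -0.0805 and -0.0195 in siblings, 0.0473 and 0.0512 in kn1-e1). With 2 SAM libraries per genotype these values are not independent, and they cannot show whether equal numbers mean a pair. The block, without tassel replicate 3, gave 9550 sibling calls, against 9608 without that library and without a block. Small differences of low genes are limited by depth and by the 2 SAM libraries.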

Other observations

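Over all genes tested between SAM and tassel of siblings, 26.4% rose and 26.7% fell. Calls of at least 2-fold made up 17.1%, with 6.26% higher and 10.8% lower in SAM. These shares are the background for the counts here. Of 37 cell cycle and DNA replication genes, 6 rose, 8 fell and 23 were not called, and 1 reached 2-fold: Cyclin-SDS, named for a meiotic cyclin, at 2.64 and 3.99 CPM in SAM and 7.92, 7.88 and 8.95 CPM in tassel. Of 34 cytosolic ribosomal protein genes, 15 rose and 2 fell in SAM, with a median of 0.21 against 0.007 over all genes tested. The largest rise was that of rpl30, at 174 and 145 CPM in SAM and 73.9, 71.8 and 72.2 CPM in tassel (1.15 ± 0.09). Of 14 histone genes, 5 rose and 1 fell, none by 2-fold. Of the genes known from meiosis, the cohesin gene REC8 was at 4.47 and 5.99 CPM in SAM and 42.5, 41.5 and 43.1 CPM in tassel (-3.02 ± 0.11), while am1 had 43 counts in SAM and 3 in tassel.

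Of 21 heat-shock and chaperone genes tested, 6 rose, all by at least 2-fold, and 7 fell. Of all genes tested, 26.4% rose, 6.26% rose by at least 2-fold and 26.7% fell. The small heat-shock protein gene hsp18f was at 79.3 and 152 CPM in SAM and 3.51, 4.57 and 4.47 CPM in tassel (4.79 ± 0.24), and hsp101 was at 22.0 and 12.7 CPM in SAM and 0.957, 1.31 and 1.25 CPM in tassel (3.90 ± 0.26). SAM replicate 2 was the higher one for hsp18f and the lower one for hsp101. The chaperone genes bip1 (-0.74) and HSP90-1 (-1.54) fell. In 13 nitrogen genes 5 rose and 6 fell, and the nitrate transporter gene NRT1.2 was at 0.102 and 0.182 CPM in SAM and 10.5, 11.1 and 11.4 CPM in tassel (-6.24 ± 0.27). In 21 sugar and starch genes 6 rose and 10 fell. The starch synthase gene wx1 rose by 2.53 ± 0.27 and the pyrophosphorylase gene sh2 by 1.86 ± 0.19, while AGP2 fell by 1.51 ± 0.09 and the sucrose synthase gene sh1 by 0.89 ± 0.12. The phytochrome gene PhyB2 was at 6.05 and 5.93 CPM in SAM and 27.2, 25.1 and 27.6 CPM in tassel (-2.14 ± 0.11).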
